A study of Bos taurus and Bos indicus with 3 samples.

Results

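The T cell receptor complex and the WC1 antigens mark the T cells of cattle blood. Of 10 genes sought by name (WC1, WC11, CD3D, CD3E, CD3G, CD247, CD4, CD8A, IL7R and LCK), 7 were found among 25968 gene models, each on 1 model, and all 7 were above 0 in every library. CD247, CD4 and LCK were listed under none of the names searched and are not analysed here. Leukocyte mRNA had been sequenced as 1 library per breed, from pooled blood of 45 Cholistani cows (an indicine breed, sampled at a farm in Pakistan), 7 Jersey cows and 40 Holstein cows (both taurine, sampled at 2 university herds in Wisconsin). The labels name no treatment and no age. White cells were spun from the pooled blood and washed with red cell lysis buffer, so every kind of leukocyte could contribute, and only the Cholistani RNA was shipped in a dry storage matrix. Breed, farm, country and shipping therefore cannot be told apart.

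The receptor of an alpha beta or gamma delta T cell reads antigen but has almost no tail of its own, and it signals through the CD3 chains, which are assembled with it as pairs of epsilon with gamma and epsilon with delta. CD8A forms the coreceptor that binds MHC class I beside the receptor, and IL7R is the receptor chain through which interleukin 7 keeps resting T cells alive. WC1 proteins are scavenger receptor cysteine-rich coreceptors carried by a large subset of the gamma delta T cells of ruminants, and WC11 is the protein entry name under which the WC1.1 antigen is listed.

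The values are FPKM (fragments per exon kilobase, scaled by the fragments mapped), upper-quartile normalized by the authors. Levels are set side by side between genes and between libraries, and those between libraries depend on how the libraries are scaled. With 1 library per breed there was no spread to test against, no p or error was computed, and neighbours in an order of levels cannot be said to differ or not. Folds are log2 ratios of FPKM + 1, and a gene was counted as higher or lower at 2-fold or more. FPKM summed to 9518430 in Cholistani, 6288100 in Jersey and 5949770 in Holstein over the 15284 models above 0 in any library, and folds were also computed at equal library sums (each library scaled to the mean of these sums). That lowered the median log2 fold of all models from 0.15 to -0.43 between Cholistani and Holstein and from 0.12 to -0.41 between Cholistani and Jersey. The number of fragments behind each value is unknown. Positions are on btau4.0, counted from 1.

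In Cholistani leukocytes CD3E and CD8A were more than 2-fold above both taurine libraries and IL7R was about 4-fold below them, while CD3G and CD3D differed by less than 2-fold. At equal library sums CD8A stayed more than 2-fold above both and CD3E did not. Jersey and Holstein had nearly equal levels of the CD3 genes, CD8A and IL7R and differed at WC11. CD3E led the order of the 7 genes in each library. CD3D came next in Cholistani and CD3G in Jersey and Holstein. IL7R stood below CD8A and WC1 in the Cholistani library and above CD8A in both taurine libraries.

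**Figure D1:**
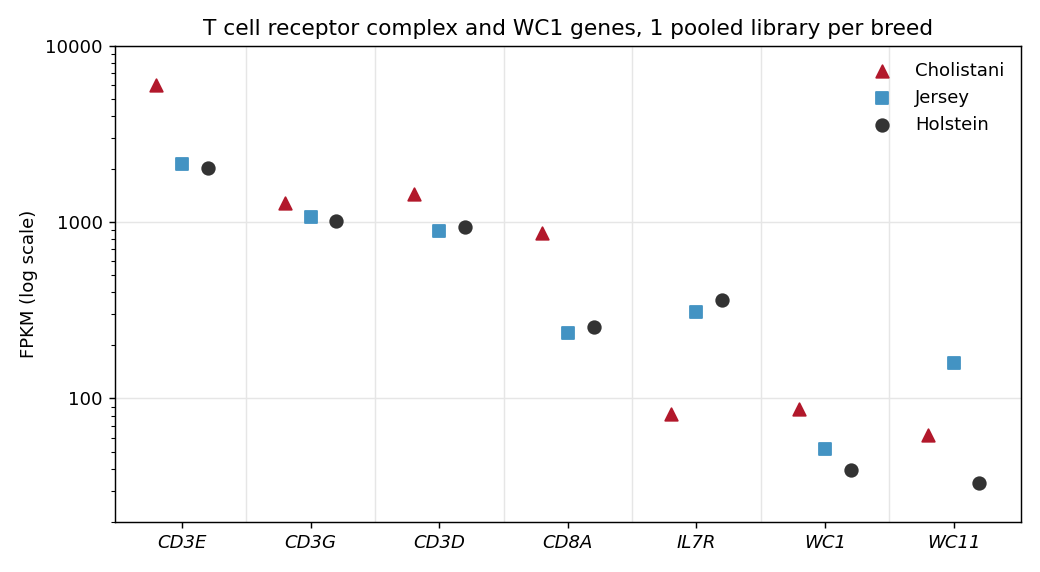
FPKM (log axis) of the 7 genes in the pooled Cholistani (triangles), Jersey (squares) and Holstein (circles) libraries, 1 point per library, with no error bars because there are no replicates. The Cholistani point lies far above the others for CD3E (6016 FPKM) and CD8A (866 FPKM) and below them for IL7R (81.4 FPKM), and the Jersey point stands apart for WC11 (159 FPKM).

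CD3E encodes the epsilon chain, which is present in both CD3 pairs, and its model lies on chromosome 15 from 27435287 to 27446876. It had 6016 FPKM in Cholistani, 2127 FPKM in Jersey and 2041 FPKM in Holstein. Its log2 fold was 1.56 over Holstein and 1.50 over Jersey, and at equal library sums 0.88 and 0.90, which is under 2-fold. Among the 13664 models above 0 in Cholistani it ranked 228, against 379 of 13783 in Jersey and 383 of 13409 in Holstein. In these bulk libraries, more T cells and more CD3E RNA per T cell cannot be told apart.

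CD3D, the delta chain gene, begins 4128 bases beyond CD3E, on chromosome 15 from 27451005 to 27455296. It had 1444 FPKM in Cholistani, 891 FPKM in Jersey and 943 FPKM in Holstein, log2 folds of 0.61 over Holstein and 0.70 over Jersey. At equal library sums these were -0.06 and 0.10, so the direction against Holstein depended on the scale.

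CD3G, the gamma chain gene, follows CD3D after 1948 bases. The span listed for it, from 27457245 to 27623421, is shared with 6 other models, among them UBE4A, ATP5L and MLL, so it bounds a group of genes and not CD3G alone. CD3G had 1280 FPKM in Cholistani, 1072 FPKM in Jersey and 1016 FPKM in Holstein. Its log2 fold was 0.33 over Holstein and 0.25 over Jersey and turned to -0.34 against each at equal library sums. The 3 neighbouring CD3 genes thus did not move as a block: CD3E was higher in Cholistani under both scales, and CD3G was higher or lower with the scale.

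A ratio between genes of the same library does not depend on the scale of that library. CD3E stood at 4.70 times CD3G in Cholistani, 1.98 times in Jersey and 2.01 times in Holstein. Against CD3D it stood at 4.17 times in Cholistani, 2.39 times in Jersey and 2.16 times in Holstein. The CD3D to CD3G ratio varied less, at 1.13 in Cholistani, 0.831 in Jersey and 0.928 in Holstein. The chains that pair with epsilon were therefore nearly level with each other in all 3 libraries, and the excess of CD3E over each was wider in Cholistani. Of the FPKM of the 7 genes together, CD3E held 61.2% in Cholistani, 43.9% in Jersey and 43.5% in Holstein.

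**Figure D2:**
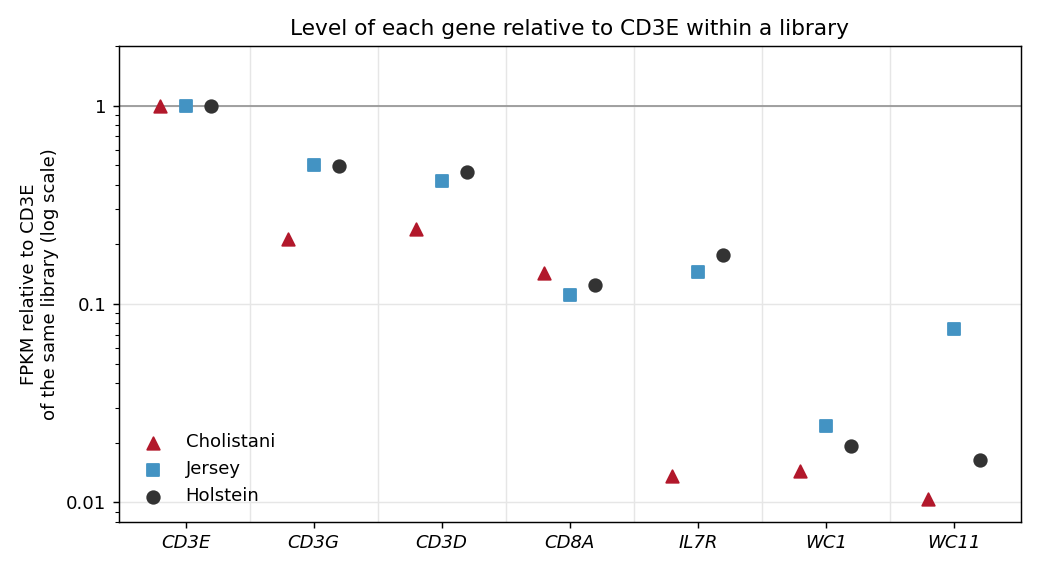
FPKM of each gene divided by that of CD3E in the same library (log axis), for the Cholistani (triangles), Jersey (squares) and Holstein (circles) libraries, 1 point per library; CD3E is at 1 by construction. The Cholistani points of CD3G (0.213) and CD3D (0.240) lie below the taurine points, CD8A lies close together in all libraries (0.144, 0.111 and 0.125 in Cholistani, Jersey and Holstein), and IL7R is far lower in Cholistani (0.0135).

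CD8A, on chromosome 11 from 49851896 to 49859129, encodes the alpha chain of the CD8 coreceptor, found on cytotoxic T cells and, as a homodimer, on some gamma delta T and natural killer cells. It had 866 FPKM in Cholistani, 236 FPKM in Jersey and 255 FPKM in Holstein. This was the highest log2 fold among the 7 genes in both Cholistani comparisons, 1.76 over Holstein and 1.87 over Jersey, and it stayed above 2-fold at equal library sums (1.09 and 1.27). Among all models, the fold of CD8A lay at percentile 88.9 against Holstein and 90.8 against Jersey. Among the 2867 models with a mean level within 2-fold of its own, it lay at 96.5 and 97.4, a comparison chosen after seeing the data. In the same comparison CD3G fell from 57.8 to 39.3 against Holstein and from 56.2 to 33.6 against Jersey. CD3D fell from 68.8 to 57.7 and from 74.5 to 62.8. CD3E went from 87.8 to 90.1 and from 89.1 to 87.9. WC1 and WC11 lay farther from the middle against both libraries. The FPKM of CD8A can also be set beside other genes of its library. Relative to CD3E it was 0.144 in Cholistani, 0.111 in Jersey and 0.125 in Holstein. Relative to CD3G it was 0.677 in Cholistani, 0.220 in Jersey and 0.251 in Holstein. Relative to the geometric mean of CD3D, CD3E and CD3G it was 0.388 in Cholistani, 0.186 in Jersey and 0.204 in Holstein. CD8A therefore kept nearly the same proportion to CD3E across the libraries, whereas its proportions to CD3G and to this mean were higher in Cholistani.

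IL7R, on chromosome 20 from 40570140 to 40604809, was, alone of the 7 genes, 2-fold or more below both taurine libraries in Cholistani. It had 81.4 FPKM in Cholistani, 308 FPKM in Jersey and 360 FPKM in Holstein. The log2 folds were -2.13 against Holstein and -1.91 against Jersey, and -2.80 and -2.50 at equal library sums. Its percentile of expression was 46.6 in Cholistani, 80.9 in Jersey and 83.5 in Holstein. Among all models, its fold lay at percentile 6.96 against Holstein and 8.52 against Jersey. Among the 4023 models with a mean level within 2-fold of its own, it lay at 1.11 and 1.53, a comparison chosen after seeing the data. CD8A was 10.6 times IL7R in Cholistani, 0.766 times in Jersey and 0.706 times in Holstein, so the order of these surface receptors differed between the Cholistani and the taurine libraries.

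**Figure D3:**
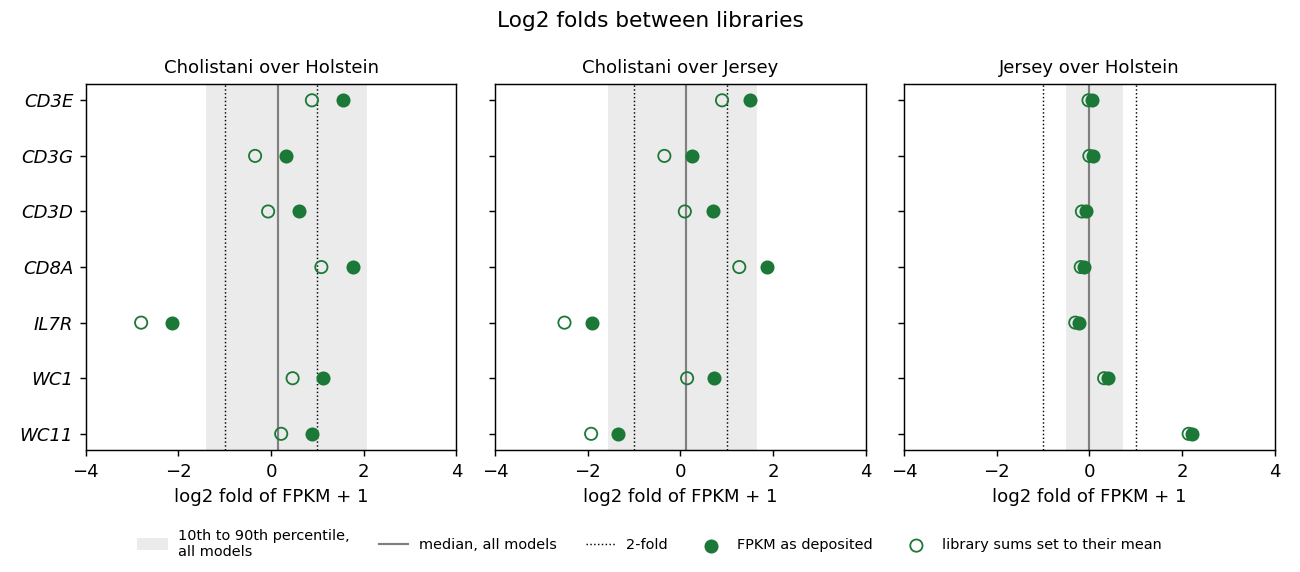
Log2 folds of FPKM + 1 for the 7 genes between each pair of libraries, with FPKM as deposited (filled) and at equal library sums (open). The grey band spans the 10th to 90th percentile of all 15284 models, the grey line is their median and dotted lines mark 2-fold. Band and median are of FPKM as deposited, so they are the background of the filled points only. IL7R lies below the band in both Cholistani panels and CD8A above it against Jersey, while in the Jersey over Holstein panel WC11 (2.22) is the only gene beyond 2-fold.

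Between Cholistani and Holstein, 3 of the 7 passed 2-fold upward (CD8A, CD3E and WC1), as were 19.7% of all models, and 1 passed it downward (IL7R), as did 13.7%. At equal library sums, CD8A alone was higher and IL7R alone lower, and of all models 1773 were higher and 4199 lower in place of 3006 and 2099. The median log2 fold of the 7 genes was 0.88, beside 0.15 for all models. Between Cholistani and Jersey, 2 genes were higher (CD8A and CD3E; 17.2% of all models) and 2 lower (IL7R and WC11; 14.2%), with a median of 0.70 beside 0.12 for all models. Here the rescaled sums left CD8A higher and the same pair lower, and gave 1588 models higher and 4004 lower in place of 2625 and 2177. Both comparisons use the same Cholistani library. Between Jersey and Holstein, WC11 was higher (7.99% of all models) and none was lower (4.70%), and the median was 0.06 beside 0.00. For so few genes these counts are near the background shares, and nothing was read from them.

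The WC1 and WC11 models lie on chromosome 5, from 9543745 to 9582137 and from 10001849 to 10064425, with 419711 bases between them. WC1 had 87.0 FPKM in Cholistani, 51.8 FPKM in Jersey and 39.2 FPKM in Holstein. Its log2 fold over Holstein was 1.13, which became 0.98 with a pseudocount of 10 FPKM, 0.95 with folds centred on their median and 0.47 at equal library sums, each under 2-fold. WC11 had 62.3 FPKM in Cholistani, 159 FPKM in Jersey and 33.4 FPKM in Holstein. Its log2 folds were 2.22 for Jersey over Holstein, -1.33 for Cholistani over Jersey and 0.88 for Cholistani over Holstein, and at equal library sums 2.14, -1.92 and 0.22. Jersey thus had the highest WC11 and Cholistani the highest WC1.

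The proportion of WC11 to WC1 was 0.716 in Cholistani, 3.06 in Jersey and 0.851 in Holstein. Relative to CD3E, WC11 stood at 0.0104 in Cholistani, 0.0746 in Jersey and 0.0163 in Holstein. WC1 stood at 0.0145 of CD3E in Cholistani, 0.0244 in Jersey and 0.0192 in Holstein. Relative to CD3G, WC1 was 0.0680 in Cholistani, 0.0483 in Jersey and 0.0386 in Holstein, and WC11 was 0.0487, 0.148 and 0.0328. Cholistani was thus lowest for both against CD3E and for neither against CD3G, so its place depended on the CD3 gene used. WC1 genes are a family of closely similar copies, and the authors kept reads that aligned to as many as 20 places, so how reads were divided among these loci is uncertain. The Jersey pool was also the smallest, with 7 cows. The part of either in the WC11 value was not tested.

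From WC1 to WC11 the table held 9 further models, of which 2 carried only a protein accession and 7 no name, so none is assigned to the WC1 family here. They were looked at after their values were seen. Of these, 1 was listed at 0 in all libraries, and 3 were listed at 0 in Holstein and above 0 in Cholistani and Jersey. All 8 models above 0 were higher, by any amount, in Cholistani than in Holstein, and 7 of the 8 were higher in Jersey than in Holstein. The lowest of them had 7.29 FPKM in Cholistani, 3.11 in Jersey and 0 in Holstein. The share of all models higher by any amount was not computed, and the models are neighbours in 1 region, so nothing is read from these counts. The median log2 fold of all models for Cholistani over Holstein was 0.15. The model from 9617764 to 9622494, with an accession, had 169 FPKM in Cholistani, 83.3 FPKM in Jersey and 36.0 FPKM in Holstein. An unnamed model from 9732233 to 9735748 had 94.0 FPKM in Cholistani and 37.4 FPKM in Jersey and was listed at 0 in Holstein. Against Jersey, 7 of the 8 were higher in Cholistani. Scaling to equal sums, chosen after seeing the data, left both counts against Holstein as they were and made the count against Jersey 5.

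**Figure D4:**
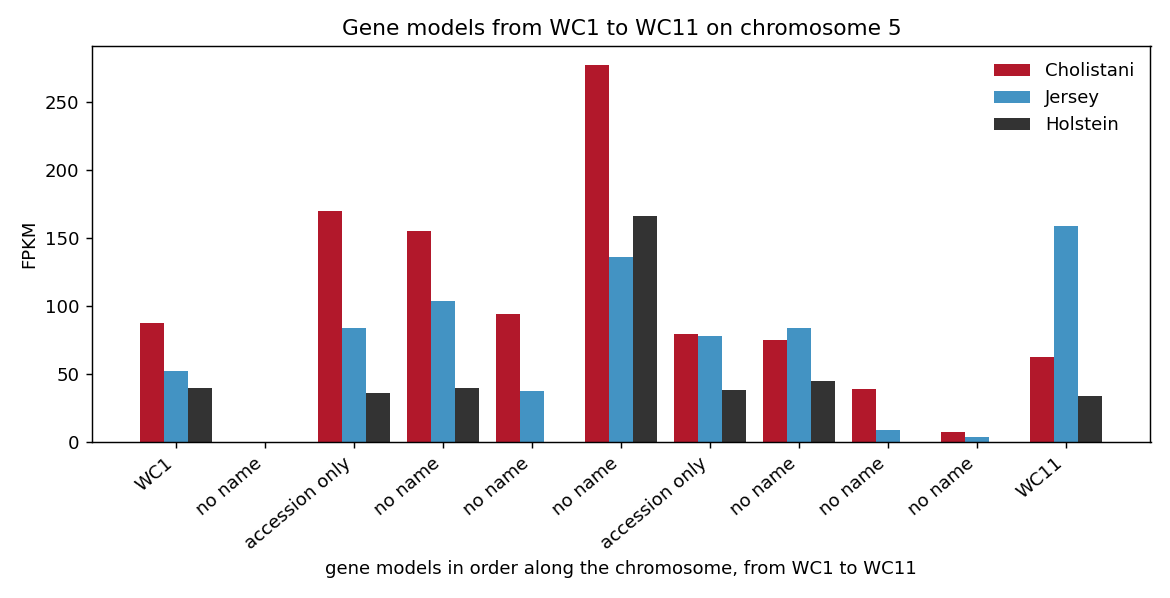
FPKM of the 11 gene models from WC1 (left) to WC11 (right) on chromosome 5, in their order along the chromosome, as bars for the Cholistani, Jersey and Holstein libraries (1 library each, no error bars; labels give the name, accession only or no name). Jersey exceeds Cholistani at WC11 (159 and 62.3 FPKM), and Holstein is lowest at most models, with 3 listed at 0 in Holstein alone.

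Genes that act beside the T cell receptor were taken from 5 lists, of which 56 genes were found by name and measured. Between Cholistani and Holstein 7 of the 56 passed 2-fold upward, 3 were lower and 46 were neither, with a median log2 fold of 0.18. Between Cholistani and Jersey 9 were higher and 3 lower (median 0.27), and between Jersey and Holstein none was higher and 1 lower (median -0.06). The shares higher in Cholistani, 12.5% against Holstein and 16.1% against Jersey, stand beside 19.7% and 17.2% of all models, and the shares lower, 5.36% in both, beside 13.7% and 14.2%. At equal library sums 2 were higher and 11 lower over Holstein (median -0.49), and 4 were higher and 10 lower over Jersey (median -0.33). The shares lower were then 19.6% and 17.9%, beside 27.5% and 26.2% of all models. These shares of all models are also the background for the counts of each list below.

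Of 17 genes of receptor-proximal signalling, none was higher in Cholistani by 2-fold over Holstein and 1 was lower (median 0.21). The lower gene was GRAP2, an adaptor that couples LAT to SLP-76, with 290.2 FPKM in Cholistani, 744 in Jersey and 874 in Holstein. NFATC3, a calcium-responsive transcription factor, had 110.4, 192 and 198 FPKM and a log2 fold of -0.84 over Holstein. ZAP70, the kinase recruited to phosphorylated CD3 chains, had 846 FPKM in Cholistani, 702 in Jersey and 569 in Holstein (named after its value was seen). SKAP1, an adaptor of integrin activation, had 1033 FPKM in Cholistani, 619.7 in Jersey and 564 in Holstein, and the most abundant member, CSK, the kinase that restrains LCK and FYN, had 3252, 2049 and 2141 FPKM. Scaled to equal sums, 4 of the 17 were lower than in Holstein and the median was -0.46.

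Of 7 coreceptors and costimulatory receptors, 1 was higher and 1 lower in Cholistani than in Holstein (median -0.19). LAG3, an inhibitory receptor related to CD4 that binds MHC class II, had 449 FPKM in Cholistani, 97.4 in Jersey and 105 in Holstein, a log2 fold of 2.09 over Holstein. BTLA, an inhibitory receptor of B and T cells, was lower, at 62.4 FPKM in Cholistani, 168 in Jersey and 217 in Holstein. CD226, an activating receptor, had 72.2, 94.3 and 135 FPKM. CD5, a scavenger receptor cysteine-rich protein of T cells, was the most abundant of this list, at 1017 FPKM in Cholistani, 561 in Jersey and 662 in Holstein. Scaled to equal sums, 1 of the 7 was higher and 3 were lower over Holstein, and the median was -0.85.

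Of 11 genes of the common gamma chain cytokine receptors and their signalling, 3 were higher and none lower in Cholistani than in Holstein (median 0.60). IL2RG, the chain that IL7R pairs with, had 4615 FPKM in Cholistani, 2207 in Jersey and 2305 in Holstein, so it was just past 2-fold higher over Holstein, where IL7R was lower. SOCS1, a feedback inhibitor of cytokine signalling, had 209 FPKM in Cholistani, 37.8 in Jersey and 67.1 in Holstein. IL21R had 236, 153 and 141 FPKM and did not reach 2-fold over Holstein. None of the 11 was 2-fold higher over Holstein at equal library sums, 1 was lower and the median was -0.074.

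Of 13 T cell transcription factors, 2 were higher and none lower in Cholistani than in Holstein (median 0.19). RUNX3, which directs CD8 lineage cells, had 1019 FPKM in Cholistani, 488 in Jersey and 470.3 in Holstein. SOX13, a factor of gamma delta T cells in mice, had 149.8 FPKM in Cholistani, 133 in Jersey and 66.2 in Holstein. GATA3, of T helper 2 cells, had 172, 128 and 94.9 FPKM, under 2-fold. LEF1, of resting T cells, was the most abundant of the list, at 919 FPKM in Cholistani, 564 in Jersey and 735 in Holstein. None of the 13 was 2-fold higher over Holstein at equal library sums, 1 was lower and the median was -0.48.

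Of 8 genes of T cell recirculation, 1 was higher (CXCR4) and 1 lower in Cholistani than in Holstein (median -0.22), and at equal library sums 1 was higher and 2 lower (median -0.89). CXCR4, the receptor of CXCL12, had 1763 FPKM in Cholistani, 326 in Jersey and 339 in Holstein. Among 5 scavenger receptor relatives of WC1, 1 was higher (MARCO, 9.55 FPKM in Cholistani and listed at 0 in Jersey and Holstein, named after its value was seen) and none lower. CD163 had 292, 192 and 329 FPKM, and LGALS3BP had 702, 427 and 545 FPKM in Cholistani, Jersey and Holstein.

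Markers of other blood cells differed between the same libraries. Of 6 measured cytotoxic and natural killer genes, 5 were higher in Cholistani than in Holstein and 1 lower, beside 19.7% and 13.7% of all models. The summed level of the 6 was 4041 FPKM in Cholistani, 894 in Jersey and 1193 in Holstein. The higher ones included GZMB (436.5, 52.3 and 42.3 FPKM), GZMM (461, 46.9 and 94.5), NKG7 (1386, 219 and 275) and NCR1, a natural killer receptor (1594, 502 and 700). GZMA was listed at 0 in Cholistani, with 11.5 FPKM in Jersey and 8.63 in Holstein, and CD160 at 0 in all. Scaled to equal sums, 3 of the 6 were still 2-fold higher over Holstein and 4 over Jersey, beside 11.6% and 10.4% of all models. CD8A moved with this list, and the part of natural killer cells in its value was not tested.

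B cell markers summed to 18871 FPKM in Cholistani, 10919 in Jersey and 8613 in Holstein, and CD79A made up most of each sum. Of the 6, 1 was higher than in Holstein (CD79A: 14273, 6190 and 5281 FPKM) and 1 lower (PAX5: 145, 381 and 296 FPKM). Of all models, 19.7% were higher and 13.7% lower than in Holstein. None of the 6 was at 0. Monocyte markers summed to 2996, 1092 and 1494 FPKM, with 1 of 4 higher than in Holstein, CSF3R, which neutrophils carry too (1976, 532 and 657). CSF3R made up most of the Cholistani sum. VCAN had 169.9, 119 and 202 FPKM. Neutrophil markers summed to 29822, 28275 and 35998 FPKM, with 1 of 6 higher than in Holstein, CXCR2 (598, 7.62 and 33.5 FPKM). S100A12 was the most abundant, with 13418 FPKM in Cholistani, 12184 in Jersey and 17413 in Holstein, S100A8 had 7767, 9500.3 and 11065 FPKM, and MMP9 and LTF were listed at 0 in Jersey.

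The summed levels of platelet and red cell markers were lower in Cholistani. The red cell sum was mostly ALAS2 in Jersey and Holstein, so its direction rested on that gene. Platelet markers summed to 3362 FPKM in Cholistani, 7957 in Jersey and 10921 in Holstein, with 1 of 7 higher than in Holstein (GP9) and 4 lower, among them TUBB1 (551, 2997 and 4430 FPKM), CLU (118, 668 and 941), TREML1 (45.5, 80.8 and 155) and the abundant F13A1 (1775, 3118 and 4417). Red cell markers summed to 140 FPKM in Cholistani, 396 in Jersey and 563 in Holstein. Of these 4, 2 were higher than in Holstein (HBA and BPGM) and 2 lower (ALAS2 and EPB42). Of all models, 19.7% were higher and 13.7% lower than in Holstein. BPGM had 38.5 FPKM in Cholistani, 11.9 in Jersey and 14.1 in Holstein. ALAS2 had 32.3, 363 and 536 FPKM, EPB42 was listed at 0 in Cholistani, HBA at 0 in Holstein (69.3 FPKM in Cholistani, 11.5 in Jersey), and AHSP and CA1 at 0 in all. Of the genes higher over Holstein in the B cell, monocyte, neutrophil, platelet and red cell lists, CD79A, CSF3R, GP9 and the red cell enzyme gene BPGM were under 2-fold at equal library sums. The part of other blood cells in the values of the T cell genes was not tested.

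**Figure D5:**
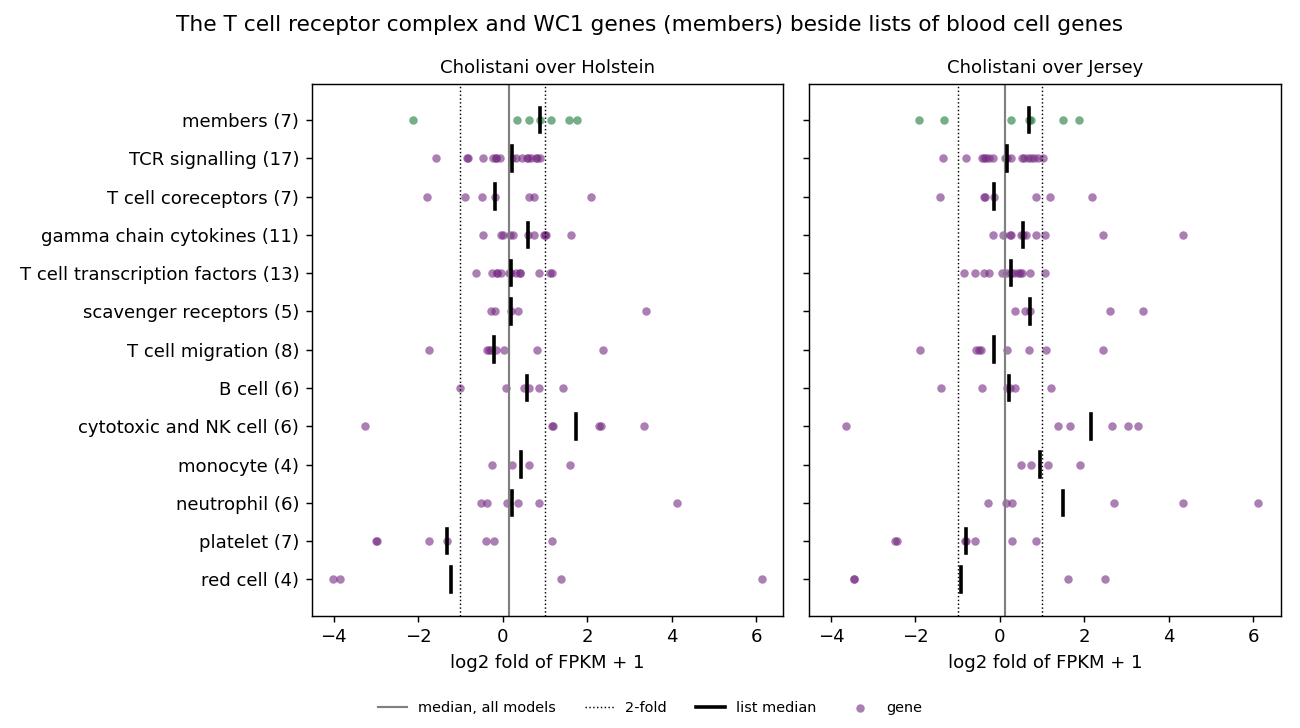
Log2 folds of FPKM + 1 for the 7 genes (top row) and for 12 gene lists (measured genes in parentheses), Cholistani over Holstein (left) and Cholistani over Jersey (right); dots are genes, thick ticks list medians, the grey line the median of all models and dotted lines 2-fold. The 7 genes have medians of 0.88 and 0.70, the cytotoxic and natural killer list 1.73 and 2.16, and the platelet list -1.32 and -0.81.

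The models most like these genes in pattern were ranked by the Euclidean distance between profiles of log2(FPKM + 1), each centred on its own mean, over 3 libraries and 5419 named models with a mean of at least 50 FPKM. Nearest to CD3E were LSM7, a protein of the U6 spliceosomal particle (1528, 547 and 520 FPKM in Cholistani, Jersey and Holstein, distance 0.0142), AP2S1, a clathrin adaptor subunit (0.0144), SIRT5, a mitochondrial deacylase (0.0173), PSB9, the entry name of the immunoproteasome subunit PSMB9 (0.0248), and RUXG, that of the Sm protein SNRPG (0.0264). The median profile of the 7 genes was closest to RAB28, TM129, CC107, CCD75 and PCBP4, at distances of 0.108 to 0.110. The 7 genes themselves were left out of the candidates, so none of them could be among these 10. Nearest to WC11 were small RNA loci, a pair named U2, a pair named SNORA48 and U3, at distances of 0.103 to 0.271. The nearest, a U2 locus, had 133 FPKM in Cholistani, 355 in Jersey and 79.3 in Holstein. With 3 libraries, many models share a profile, and these distances are a description.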

How the data were processed

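Leukocyte mRNA of 3 pooled libraries, 1 per breed, was analysed. The authors used TopHat v1.0.14 and Bowtie v0.12.7 to align reads to btau4.0 and Cufflinks v0.9.3 to assemble transcripts, and deposited FPKM per gene model after upper-quartile normalization and a correction of sequence bias. These FPKM were used as deposited. The 5 models with missing values were left out. Starts were read as 0-based and are given as 1-based.

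Genes were matched by symbol or bovine protein entry name. For the 3 list genes with more than 1 model, the model with the highest mean FPKM was taken. Models with several names or only an accession were matched to no gene. Of 175 list genes in 12 lists, 97 were found and 94 measured. Genes and lists were chosen with earlier results of these data known. Per list, the 3 genes farthest from 0 between Cholistani and Holstein (at least 50 FPKM in a library) and the most abundant were named, beside the 5 models most alike in pattern. Some genes this rule names are not reported here.

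Folds used a pseudocount of 1 FPKM. Without replicates no test was run. Alternatives were a minimum of 10 FPKM, pseudocounts of 0.1 and 10, centred folds, equal library sums, models of a name summed, ratios of FPKM + 10, the mean of the CD3 genes as denominator, and percentiles among models with at least 10 FPKM. The procedure was tested on simulated data. Python 3.11.15, numpy 2.4.6, pandas 2.3.3 and matplotlib 3.10.9 were used. No reference genome or sequence table was used here, and no sequence is shown.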

Additional observations from a re-analysis of the deposited data

How the results depend on the processing

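With 1 library per breed no replicate could be left out, and the fragments behind each FPKM are unknown, so the precision of a value cannot be given. No paired analysis was possible because each breed has 1 library. Of the 21 log2 folds of the 7 genes, all stayed on their side of 2-fold and kept their sign with a pseudocount of 0.1 FPKM and with models of a name summed (each has 1 model), and 20 did so with a pseudocount of 10 FPKM and with centred folds, the exception being WC1 over Holstein in Cholistani.

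At equal library sums, 13 stayed, 3 fell under 2-fold and 5 changed sign: CD3D (-0.064) and CD3G (-0.34) for Cholistani over Holstein, CD3G (-0.34) for Cholistani over Jersey, and CD3E (-0.020) and CD3G (-0.0020) for Jersey over Holstein. The number of the 7 genes at least 2-fold higher in Cholistani became 1 against each taurine library. Their median log2 fold became 0.22 over Holstein, 0.10 over Jersey and -0.020 for Jersey over Holstein. Centred folds gave medians of 0.70 and 0.55 for the Cholistani comparisons, and a pseudocount of 10 FPKM gave 0.74 over Holstein.

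For all models, equal library sums gave medians of -0.43 over Holstein and -0.41 over Jersey, with 1773 higher and 4199 lower (3006 and 2099 as deposited), and 1588 higher and 4004 lower (2625 and 2177 as deposited). Centring gave medians of -0.031 over Holstein and -0.027 over Jersey. A pseudocount of 10 FPKM left 1264 models lower in Cholistani than in Holstein, 1328 lower than in Jersey, and 741 higher and 404 lower in Jersey than in Holstein (1221 and 718 with a pseudocount of 1).

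At equal library sums, list medians for Cholistani over Holstein became -0.46 for receptor-proximal signalling, -0.074 for the common gamma chain list, -0.48 for transcription factors, -0.36 for scavenger receptors, -0.11 for B cells, -0.25 for monocytes and -0.39 for neutrophils. For Cholistani over Jersey they became -0.42 for receptor-proximal signalling, -0.033 for the common gamma chain list, -0.33 for transcription factors and -0.39 for B cells, and for Jersey over Holstein -0.064 for T cell recirculation. A minimum of 10 FPKM gave -0.17 for scavenger receptors over Holstein, and a pseudocount of 10 FPKM gave 0.075 for red cells over Jersey. These changes follow from how each setting rescales, filters or damps the values.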
